A study of Homo sapiens with 3 samples.

Results

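The expression of 10 genes of the integrated stress response and the unfolded protein response was followed in RNA-Seq of the human bladder cancer line 5637 and its gemcitabine-resistant derivative. The genes were taken by symbol from the deposited table of 29960 genes, and all 10 were present and passed the filter on low counts, among 15643 genes tested. They are ATF4, DDIT3, DDIT4, ASNS, TRIB3, CHAC1, PSAT1, PHGDH, SESN2 and HSPA5. The parental group had the genotype label WT. The resistant group was derived from it with gemcitabine, a nucleoside analog that blocks DNA synthesis. The study's methods describe repeated exposure at rising dose, after which the resistant line was kept free of the drug, whereas the labels call the treatment acute. How long before RNA extraction the last exposure ended is not given in the sources used here. Both groups were labelled untreated, and both grew in RPMI medium with 10% serum. Each library came from a clone grown from a single cell, so each stands for 1 clone. Values come from the 3 libraries that carry a sample label, 1 parental and 2 resistant, with 14475531 reads on genes in the parental library and 15836788 and 17461941 in resistant libraries 1 and 2.

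The integrated stress response is a signalling pathway in which kinases that sense amino acid shortage, misfolded protein in the endoplasmic reticulum, heme shortage or double-stranded RNA phosphorylate the translation factor eIF2. General protein synthesis then slows, while translation of ATF4 increases through open reading frames in its leader, so that the RNA level of ATF4 does not measure its protein. ATF4 is a transcription factor that switches on genes of amino acid synthesis, amino acid uptake and redox balance, and under lasting stress genes that favour cell death. The unfolded protein response shares the kinase PERK (EIF2AK3) with it and adds the sensors IRE1 (ERN1) and ATF6, which raise chaperones such as HSPA5.

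ATF4 acts with C/EBP partners on a composite site with the core letters TGATGNAA. ATF6 acts on the endoplasmic reticulum stress element, the letters CCAAT and CCACG with a spacer of 9 bases between them, and other factors of its family on the cyclic AMP response element TGACGTCA. All 3 were searched on both strands in RefSeq promoter windows of build GRCh38.p14, from 250 bases before to 50 bases after each annotated start, where all 10 genes had at least 1 window (15 in all). The composite letters were present for 2 of the 10 genes, ASNS and CHAC1, against 4.46% of 27305 genes (3.62% of 35116 windows). The stress element was present for HSPA5, and for 0.0916% of all genes (0.0769% of windows). The cyclic AMP response element was present for 0 of the 10 genes, and for 2.25% of all genes (1.85% of windows). The windows of ATF4, DDIT3, DDIT4, TRIB3, PSAT1, PHGDH and SESN2 held none of them, which says nothing about sites elsewhere in these genes. The stretches shown are those of ASNS and CHAC1, which hold the composite letters, of HSPA5, which holds the stress element, and of TRIB3, the gene with the largest fitted ratio of resistant to parental and with none of the letters. All are read 5′ to 3′ on the strand of the gene, and capitals mark the matched letters.
CHAC1, GRCh38.p14, chr15:40953241-40953340, plus strand: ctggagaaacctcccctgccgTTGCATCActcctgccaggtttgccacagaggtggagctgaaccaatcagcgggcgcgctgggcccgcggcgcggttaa
ASNS, GRCh38.p14, chr7:97872429-97872528, minus strand: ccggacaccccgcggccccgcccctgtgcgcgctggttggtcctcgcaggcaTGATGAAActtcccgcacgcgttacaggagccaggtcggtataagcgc
HSPA5, GRCh38.p14, chr9:125241354-125241453, minus strand: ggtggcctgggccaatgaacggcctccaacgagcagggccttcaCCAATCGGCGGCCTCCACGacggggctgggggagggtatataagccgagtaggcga
TRIB3, GRCh38.p14, chr20:381155-381254, plus strand: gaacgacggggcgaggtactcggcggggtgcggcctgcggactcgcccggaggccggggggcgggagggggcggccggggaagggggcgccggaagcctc
In ASNS the letters lay 68 to 61 bases before the start, in HSPA5 66 to 48 bases before it, and in CHAC1 209 to 202 bases before it on the opposite strand. A match of letters is a description and does not show that a factor binds there.

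Levels between genes were compared as FPKM, the read density scaled to gene length and library size, as the authors deposited it. In the parental library HSPA5 had 258 FPKM, PHGDH 131 and ATF4 112, and each was above at least 97.0% of tested genes. DDIT4 followed with 30.0 FPKM, PSAT1 with 18.7, ASNS with 12.1 and SESN2 with 5.96. The lowest levels were those of TRIB3 with 2.82, DDIT3 with 2.70 and CHAC1 with 1.99 FPKM. The counting intervals of TRIB3 (2.30 to 3.42) and DDIT3 (1.97 to 3.61) overlapped, and that of CHAC1 (1.49 to 2.60) overlapped both, whereas the other neighbours in this order were separated by more than their counting error. Intervals are exact Poisson intervals at 95% and cover counting error only, and 1 parental library shows no spread between parental clones. The order differed in the resistant libraries, where ASNS ranked above PSAT1. ATF4 ranked above PHGDH in both, within counting error in resistant library 1 (104 against 101 FPKM) and beyond it in resistant library 2 (115 against 100.1 FPKM). PSAT1 went from rank 5 of the 10 in the parental library to rank 7 in resistant library 1 and rank 9 in resistant library 2.

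**Figure D1:**
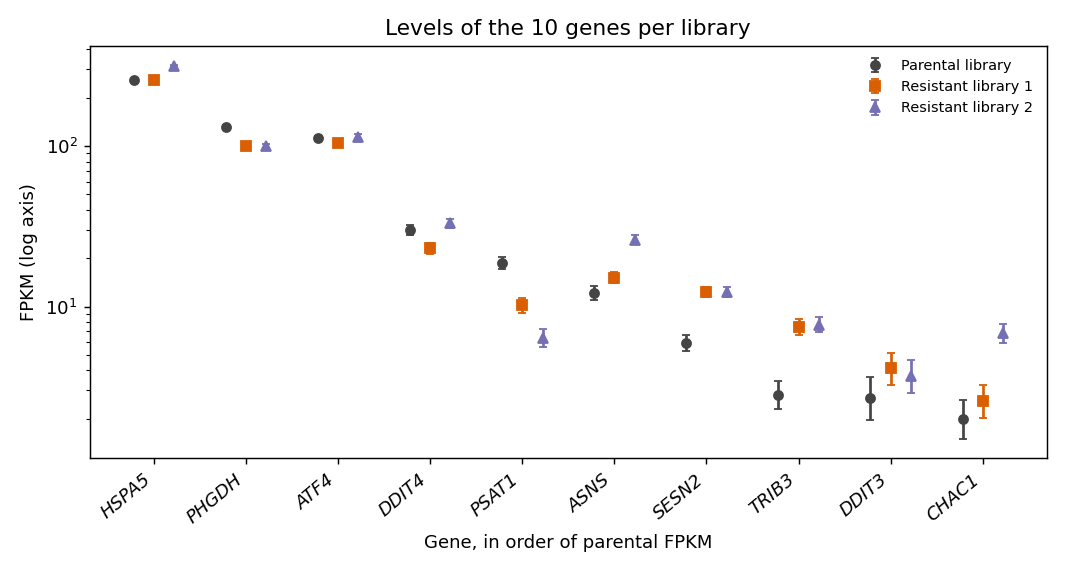
FPKM of the 10 genes (log axis) in the parental library (circles), resistant library 1 (squares) and resistant library 2 (triangles), with 95% counting intervals as bars. SESN2 and TRIB3 are higher in both resistant libraries, PSAT1 is lower in both, and CHAC1 and ASNS stand apart mainly in resistant library 2.

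The question addressed was whether the resistant line differed from the parental line in these genes. For a gene's level in 1 library, counts were scaled to library size after TMM normalization (CPM). Both resistant values exceeded the parental value for 5 of the 10 genes (TRIB3, CHAC1, SESN2, ASNS and DDIT3), as they did for 35.2% of all tested genes. Both were below it for 2 (PSAT1 and PHGDH), against 34.5%, and for 3 the parental value lay between them (ATF4, DDIT4 and HSPA5). The resistant libraries lay on the same side of the parental library for 69.7% of all tested genes, against 70.0% of the 10 genes, so this count alone does not set the genes apart. None of the 10 genes had an adjusted p under 0.05 in edgeR's quasi-likelihood test, where 0.876% of all tested genes were called (0.294% higher and 0.582% lower), and none did with DESeq2, where 1.57% were called. An unadjusted p under 0.05 was given to 3 of the 10 by both tools, against 9.7% of tested genes by edgeR. TRIB3 and SESN2 were on the higher side, with 4.85% of tested genes, and PSAT1 on the lower side, with another 4.85%. The lone parental library was assumed in these tests to vary as the resistant libraries do, with 1 residual degree of freedom per gene.

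ATF4 (ENSG00000128272, chromosome 22, 39915700 to 39918691, plus strand; all gene positions are those of the deposited table, for which the submitters' processing notes name build hg19) encodes the transcription factor at the centre of the response. Its RNA was at 232 CPM in the parental library, 203 in resistant library 1 and 233 in resistant library 2. The parental value and that of resistant library 2 coincided within counting error, with a ratio of 1.00 (95% interval 0.959 to 1.05). The fitted log2 ratio of resistant to parental was -0.09 ± 0.36 (SE), with a 95% interval from -0.89 to 0.71 (edgeR, adjusted p = 0.983), so a change of the ATF4 transcript by less than these bounds could not be seen. Reads on 4 listed pseudogenes of ATF4 and ASNS numbered between 0 and 3 per library.

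DDIT3 (ENSG00000175197, chromosome 12, 57910371 to 57914300, minus strand) encodes CHOP, a transcription factor downstream of ATF4 that promotes cell death under unresolved endoplasmic reticulum stress. It was one of the lowest transcripts, with 45 reads in the parental library and 75 and 74 in resistant libraries 1 and 2. These reads correspond to 3.19, 4.59 and 4.26 CPM. Both resistant libraries were above the parental one, but the counting interval of each ratio included 1, from 0.979 to 2.13 for resistant library 1 and from 0.909 to 1.98 for resistant library 2. No difference was called (log2 ratio 0.47 ± 0.54 (SE), edgeR adjusted p = 0.900), with few reads and 1 parental library.

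TRIB3 (ENSG00000101255, chromosome 20, 361261 to 378203, plus strand) encodes a pseudokinase induced by ATF4 and CHOP that in turn restrains ATF4 and the kinase AKT. It had 7.24 CPM in the parental library, from 102 reads, and 18.04 and 19.3 CPM in resistant libraries 1 and 2, from 295 and 336 reads. The resistant libraries lay close together, at 2.49-fold (95% interval 1.98 to 3.15) and 2.67-fold (2.14 to 3.37) of the parental value. Its log2 ratio of 1.37 ± 0.43 (SE) was the largest of the 10, with an edgeR p of 0.0094 before and 0.275 after adjustment over all tested genes. The authors also deposited a mean of size-factor-scaled counts for each group, without an error, and for TRIB3 it was 162.2 for parental and 234.0 for resistant cells. The ratio of these means, 1.44, was well below that of the 3 libraries. A size factor scales all genes of a library alike. The parental mean of ATF4, 3283, was near its 3263 reads in the labelled parental library, whereas that of TRIB3 was far from its 102 reads. The parental means therefore rest on more than this 1 library.

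Asparagine and serine are made by enzymes whose genes are classical ATF4 targets. ASNS (ENSG00000070669, chromosome 7, 97481430 to 97501854, minus strand), which makes asparagine from aspartate and glutamine, had 29.3 CPM in the parental library, 34.5 in resistant library 1 and 61.9 in resistant library 2. The resistant libraries differed from each other by 1.79-fold (95% interval 1.62 to 1.99), more than resistant library 1 differed from the parental library (1.18-fold, 1.04 to 1.34). The composite letters shown above for its promoter are shared with CHAC1. The log2 ratio was 0.72 ± 0.43 (SE; edgeR, adjusted p = 0.682), and the ratio of the authors' group means was 1.24.

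PHGDH (ENSG00000092621, chromosome 1, 120202421 to 120286838, plus strand) catalyses the first step of serine synthesis from 3-phosphoglycerate. It had 428 CPM in the parental library and 309.5 and 320.0 CPM in resistant libraries 1 and 2, and the latter differed from each other by no more than counting error. Both were below the parental library, at 0.723-fold (95% interval 0.697 to 0.751) and 0.748-fold (0.721 to 0.776), and the fitted log2 ratio was -0.44 ± 0.35 (SE; edgeR, adjusted p = 0.801). The authors' group means gave a ratio of 0.804.

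PSAT1 (ENSG00000135069, chromosome 9, 80912059 to 80945009, plus strand) encodes the aminotransferase of the next step. Its level was 42.0 CPM in the parental library, from 592 reads, and 21.6 and 14.05 CPM in resistant libraries 1 and 2, from 353 and 244 reads. Both resistant libraries were below the parental library, resistant library 2 further than resistant library 1, at 0.334-fold (95% interval 0.287 to 0.389) and 0.514-fold (0.449 to 0.587). Its log2 ratio of -1.24 ± 0.38 (SE) had an edgeR p of 0.0093 before and 0.273 after adjustment, and the authors' group means, 274.0 against 539.3 normalized counts, gave a ratio of 0.508. PSAT1 had the lowest ratio of the 10 genes by the libraries and by the group means. In FPKM, PHGDH was at 7.01 times the level of PSAT1 in the parental library, 9.87 times in resistant library 1 and 15.7 times in resistant library 2. The phosphatase of the last step, PSPH, had 31.3, 36.3 and 34.4 CPM in the same order of libraries and a fitted log2 ratio of 0.18 ± 0.36 (SE; edgeR, adjusted p = 0.952).

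CHAC1 (ENSG00000128965, chromosome 15, 41245160 to 41248710, plus strand) encodes an enzyme that degrades glutathione and is among the most responsive targets of ATF4. Its 53 parental reads gave 3.76 CPM, the 75 reads of resistant library 1 gave 4.59 CPM, and the 219 reads of resistant library 2 gave 12.6 CPM. Resistant library 1 was within counting error of the parental library (1.22-fold, 95% interval 0.846 to 1.77), whereas resistant library 2 was 3.35-fold above it (2.47 to 4.62). The resistant libraries differed by 2.75-fold (2.11 to 3.62), and only 4.98% of tested genes differed at least as much between them. Of the 10 genes CHAC1 had the widest error, with a log2 ratio of 1.19 ± 0.65 (SE; edgeR, adjusted p = 0.627), and the ratio of the group means was 1.41.

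SESN2 and DDIT4 both encode inhibitors of the growth kinase complex mTORC1, SESN2 as a leucine sensor and DDIT4, also called REDD1, through the TSC complex. SESN2 (ENSG00000130766, chromosome 1, 28586038 to 28609002, plus strand) had 21.1 CPM in the parental library and 41.1 and 42.7 CPM in resistant libraries 1 and 2. The resistant values coincided within counting error and were 1.95-fold (95% interval 1.70 to 2.24) and 2.02-fold (1.76 to 2.32) of the parental value. This gave a log2 ratio of 0.99 ± 0.37 (SE), with an edgeR p of 0.024 before and 0.405 after adjustment. The group means, 499.5 against 281.9 normalized counts, had a ratio of 1.77, the highest of the 10 genes on that scale.

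DDIT4 (ENSG00000168209, chromosome 10, 74033678 to 74035794, plus strand) did not follow SESN2. It had 53.9 CPM in the parental library, 39.0 in resistant library 1 and 57.9 in resistant library 2, so that the resistant values lay on either side of the parental one. Its fitted log2 ratio was -0.15 ± 0.38 (SE; edgeR, adjusted p = 0.968), while the group means gave the opposite sign, 0.16. No direction can be given for this gene.

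HSPA5 (ENSG00000044574, chromosome 9, 127997132 to 128003609, minus strand) encodes BiP, the main HSP70 chaperone of the endoplasmic reticulum and the gene commonly read as a sign of the unfolded protein response. It had 1034 CPM in the parental library, 969 in resistant library 1 and 1246 in resistant library 2. Resistant library 1 was at 0.937-fold (95% interval 0.916 to 0.959) and resistant library 2 at 1.21-fold (1.18 to 1.23) of the parental value, so the resistant clones lay on opposite sides of it by more than counting error. Its promoter is the one with the stress element shown above. The fitted log2 ratio was 0.10 ± 0.36 (SE), with a 95% interval from -0.71 to 0.91 (edgeR, adjusted p = 0.980), and the group means gave -0.13.

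**Figure D2:**
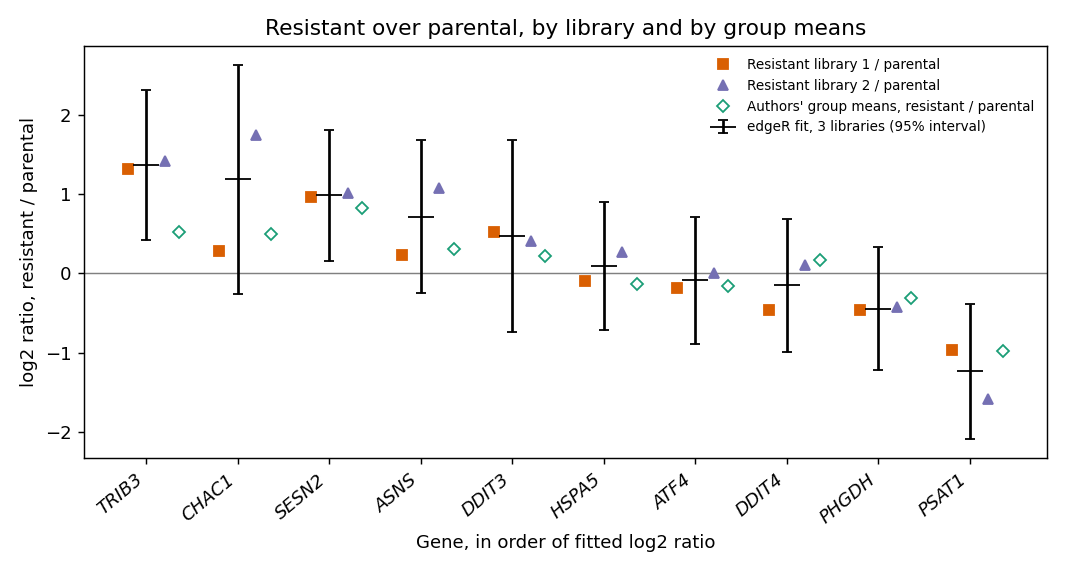
The log2 ratio of resistant to parental for each gene, from resistant library 1 (squares) and resistant library 2 (triangles) against the parental library, from the authors' group means (diamonds) and from the edgeR fit with its 95% interval (black bars). The intervals of TRIB3, SESN2 and PSAT1 exclude 0 before adjustment, and for TRIB3 and CHAC1 the group means lie well below the fitted values.

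The other genes of the pathways were taken from lists, and of 115 distinct genes 110 were tested. By edgeR's quasi-likelihood test, as by DESeq2, 1 of the 110 had an adjusted p under 0.05, a share near the 0.876% and 1.57% of all tested genes called by these tools, and 7.27% had an unadjusted p under 0.05, against 9.7% of all tested genes. The gene called was GDF15 (ENSG00000130513, chromosome 19, 18485541 to 18499987), a secreted stress cytokine induced by ATF4 and by other regulators such as p53. It rose from 1.28 CPM (18 reads) in parental cells to 22.9 CPM (375 reads) in resistant library 1 and 87.9 CPM (1527 reads) in resistant library 2. Both labelled resistant libraries were far above the parental one, and they differed from each other by 3.84-fold (95% interval 3.42 to 4.31). The log2 ratio of GDF15 was 5.43 ± 0.89 (SE; edgeR, adjusted p = 0.025). The group means of 544.0 and 23.9 normalized counts gave a ratio of 22.8, below the 43.4 of the mean CPM of these 2 resistant libraries. A rise in resistant clones other than these 2 is therefore not shown.

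Among 25 tested targets of ATF4 outside the 10 genes, 14 were above the parental value in both resistant libraries and 4 below it in both, with a median log2 ratio of 0.35 against 0.03 over all tested genes. Over all tested genes 35.2% were above the parental value in both and 34.5% below it in both, shares that also apply to the lists that follow. By the group means the median of the same genes was -0.0006, so these did not show the shift of the 3 libraries. SLC7A11, the cystine transporter subunit, had 28.0 CPM in the parental library and 51.2 and 62.5 CPM in resistant libraries 1 and 2 (log2 ratio 1.02 ± 0.37 (SE), edgeR adjusted p = 0.384), and its group means gave a smaller log2 ratio, 0.51. ATF3, a stress-induced transcription factor, was at 5.46, 6.05 and 5.99 CPM in the same order. PPP1R15A, which encodes GADD34 and brings phosphatase to eIF2, had 79.3 and 77.95 CPM in the parental library and resistant library 1 and 167 CPM in resistant library 2.

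The 14 genes of the eIF2 kinases, eIF2, its exchange factor eIF2B and its phosphatases had a median log2 ratio of -0.04, and none was called by edgeR or DESeq2 or had an edgeR p under 0.05 before adjustment. EIF2AK3 was at 14.8, 16.0 and 17.9 CPM and EIF2AK4, the amino acid sensor GCN2, at 63.7, 108 and 88.8 CPM in the parental library and resistant libraries 1 and 2. The 12 tRNA synthetases listed as induced by ATF4 had a median of 0.03 and the 8 other cytosolic ones a median of -0.20. In these lists 0 genes were called by edgeR or DESeq2, and 1 had an edgeR p under 0.05 before adjustment, on the lower side. The 6 tested enzymes of serine and one-carbon metabolism, which complete serine synthesis, pass its carbon to folate or convert folate-bound carbon, had a median of -0.03. Of these, the mitochondrial SHMT2 had 174, 133 and 120 CPM and MTHFD2 58.1, 75.4 and 72.6 CPM, on different sides of the parental value. By the group means the medians had the opposite sign for the eIF2 list (0.06), the ATF4-induced synthetases (-0.10) and the serine and one-carbon enzymes (0.12), so no direction can be given for these lists.

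In the branch of IRE1 and XBP1, 6 of 12 tested genes were above the parental value in both resistant libraries and 2 below it, with a median log2 ratio of 0.35. Neither edgeR nor DESeq2 called any of them, and 2 had an edgeR p under 0.05 before adjustment, against 9.7% of all tested genes. ERN1, the sensor itself, had 11.8, 23.4 and 31.4 CPM in the parental library and resistant libraries 1 and 2 (log2 ratio 1.22 ± 0.41 (SE), edgeR adjusted p = 0.328), and its group means gave a smaller log2 ratio, 0.59. XBP1, whose RNA it splices, had 65.9, 33.3 and 59.0 CPM, lower in both resistant libraries. Of 22 genes of the ATF6 branch, chaperones and degradation of the endoplasmic reticulum, 12 were higher in both and 3 lower in both, with a median of 0.17. Here too 0 genes were called by edgeR or DESeq2, and 1 had an edgeR p under 0.05 before adjustment. The abundant chaperones HSP90B1 (830, 664 and 603 CPM) and CALR (735, 577 and 763 CPM) were not among the genes higher in both. The 13 heat shock genes of the cytosol and mitochondria (HSPD1 and HSPE1 are the mitochondrial ones) had a median of -0.18. By the group means the medians of these 3 lists were 0.12, 0.01 and 0.04, against 0.02 over all tested genes. The ATF6 list thus did not show the shift of the 3 libraries, and the heat shock median was opposite in sign to that of the libraries.

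**Figure D3:**
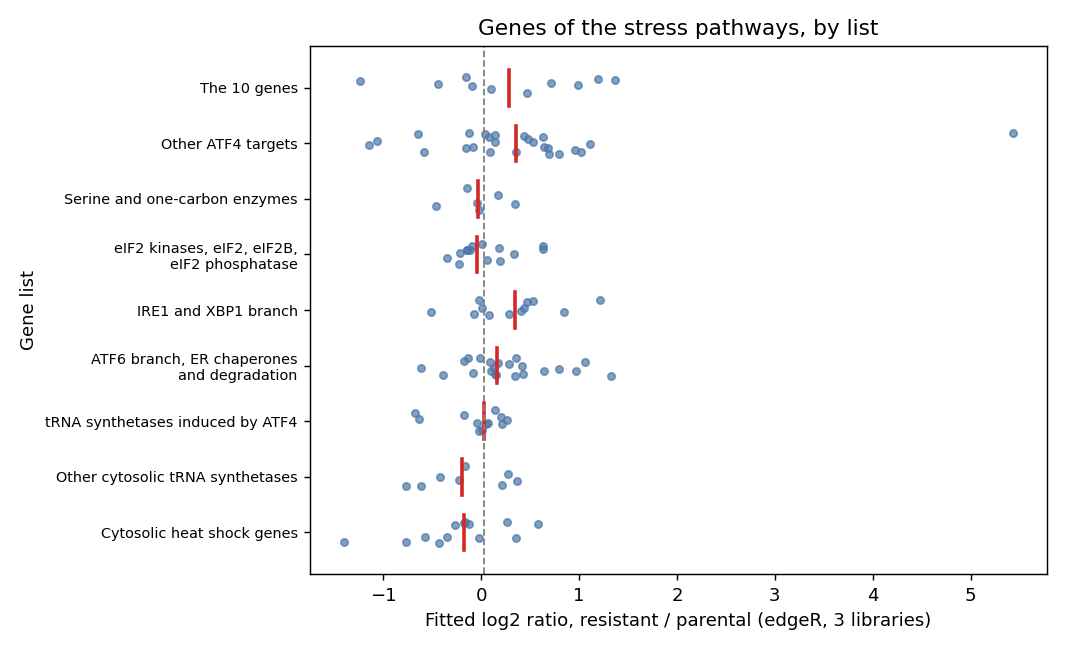
Fitted log2 ratio of resistant to parental (edgeR, 3 libraries) for each tested gene (points) of the 10 genes and 8 pathway lists, with the median of each list (red bars) and of all tested genes (dashed line). The point at 5.43 is GDF15, and the other points lie between -1.40 and 1.37. The list labelled as cytosolic heat shock genes includes the mitochondrial HSPD1 and HSPE1.

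The resistant clones were also compared with each other. Resistant library 2 was above resistant library 1 for 8 of the 10 genes and for 21 of the 25 other ATF4 targets, against 49.3% of all tested genes. The difference exceeded counting error for 6 of the 10, against 59.7% of all tested genes, with ATF4, DDIT4, ASNS, CHAC1 and HSPA5 higher and PSAT1 lower in resistant library 2. It did not for TRIB3, SESN2, PHGDH and DDIT3. Differences as large as those of ATF4 and HSPA5 were common, since 71.5% and 50.5% of tested genes were at least as far apart between these libraries. The share was 31.5% for DDIT4, 28.1% for PSAT1, 16.4% for ASNS and 4.98% for CHAC1. The 25 other ATF4 targets had a median log2 ratio of 0.61 in resistant library 2 and 0.06 in resistant library 1, each against the parental library. The heat shock genes of the cytosol and mitochondria had -0.63 and 0.18. With 1 library per clone, a difference between clones and one between cultures or library preparations cannot be told apart.

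The chromosomal surroundings of the genes were also shifted in places. PSAT1 lay in a window of 10 Mb whose other 24 tested genes had a median log2 ratio of -0.53, against -1.24 for PSAT1, and after subtraction of this median -0.71 remained. TRIB3 and DDIT3 lay in windows with medians of the opposite sign, -0.28 over 63 genes and -0.56 over 152 genes, and after subtraction DDIT3 went from 0.47 to 1.03. The windows of ATF4 and HSPA5 were shifted as well, -0.33 over 113 genes and -0.30 over 57 genes, and after subtraction ATF4 was at 0.24 and HSPA5 at 0.40. For SESN2, ASNS and CHAC1 the window medians lay between 0.09 and 0.13. The window of PHGDH held 8 other tested genes, too few for a firm value. The part of these window shifts in the results was not tested.

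**Figure D4:**
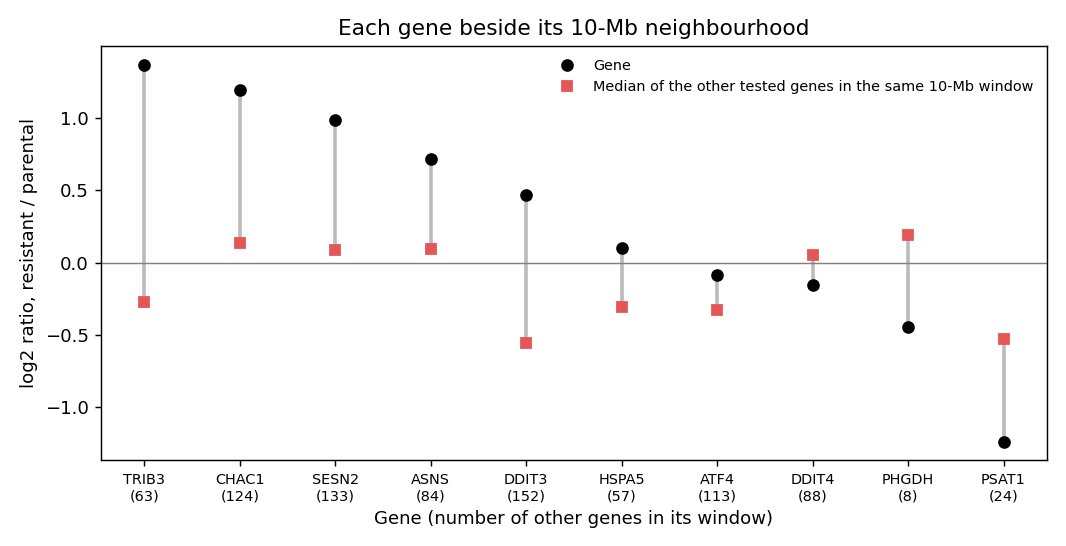
Fitted log2 ratio of resistant to parental for each gene (circles) and the median of the other tested genes in its 10-Mb window (squares), with the number of those genes in parentheses. PSAT1 and its window are both below 0, whereas TRIB3 and DDIT3 are above 0 in windows below 0.

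The cells were checked against markers. All 8 epithelial markers were expressed, EPCAM at 285 to 337 CPM. Of the 8, 5 were below the parental value in both resistant libraries and 1 was above it in both. For the other 2 the parental value lay between them. The median log2 ratio was -0.58 and the highest 0.14. KRT5, the only marker called by edgeR, fell from 272 CPM in the parental library to 9.78 and 13.8 CPM in resistant libraries 1 and 2 (log2 ratio -4.52 ± 0.38 (SE), edgeR adjusted p = 0.0006). By the group means the log2 ratio of KRT5 was smaller, -2.49. The resistant mean of 2047 normalized counts was far above the 160 and 240 reads of resistant libraries 1 and 2. The parental mean of 11544 was also above the 3829 reads of the parental library. KRT17, named after its values were seen, had 196, 17.2 and 53.3 CPM (log2 ratio -2.47 ± 0.53 (SE), edgeR adjusted p = 0.078, DESeq2 adjusted p = 0.0022) and a group-mean log2 ratio of -2.24. Of the fibroblast, endothelial and immune markers, PTPRC, CD3E, LYZ, PDGFRB, COL3A1 and CDH5 were at most 0.31 CPM in every library, VWF at most 0.81 CPM, and COL1A1 was at 61.2 to 113 CPM. In bulk RNA a smaller share of expressing cells and less RNA per cell cannot be told apart.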

How the data were processed

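RNA of single-cell clones was extracted from confluent cultures, selected for poly(A), and sequenced by a company. The submitters' processing notes name CASAVA 1.8 and hg19. The aligner, the counting tool and the library's strandedness are not given in the sources used here. The authors deposited raw read counts per gene and library, FPKM, and group means (signal) of counts divided by size factors. Their log2 fold changes and p-values were not used, nor were 6 columns of libraries without a sample label.

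Counts were filtered by filterByExpr, scaled by TMM and tested with edgeR 4.0.16 (quasi-likelihood test, Benjamini-Hochberg over 15643 genes, R 4.3.3), resistant against parental. Factors were 0.974, 1.03 and 0.995 for the parental library and resistant libraries 1 and 2. With 1 parental library, the spread behind the p-values comes from the resistant clones only. It is largely pooled over genes, with 8.94 prior degrees of freedom from the pool against 1 residual degree of freedom per gene. Ratios of 2 libraries have exact conditional binomial intervals at 95%. Group means were compared as log2 ratios with a pseudocount of 1, without a test. Windows of 10 Mb were cut by gene start. DESeq2 1.42.0, other size factors, no filter, and leaving out a library were alternatives. The steps were tested on simulated data.

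The genes and lists were chosen with earlier results of these data known. Named were the 10 genes, list genes past an adjusted p of 0.05, and 12 listed pathway genes. Lists were matched by symbol or identifier.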

Additional observations from a re-analysis of the deposited data

How the results depend on the processing

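None of the 10 genes passed an adjusted p of 0.05 with DESeq2, with DESeq2's size factors in edgeR, or without the filter on low counts, and the lowest adjusted p among these was 0.089. The number of genes called over the whole table depended on the setting: 137 by the edgeR test, 246 by DESeq2, 235 with DESeq2's size factors and 534 without the filter. Among the pathway lists the count went from 1 to 2 without the filter, where DNAJA1 was added. Direction was unstable for the genes near 0. The log2 ratio of ATF4 ran from -0.19 to 0.0060 when 1 resistant library was left out, which leaves 1 library a group and no test, that of DDIT4 from -0.47 to 0.11 and that of HSPA5 from -0.094 to 0.27. With the window median subtracted ATF4 was at 0.24, or 0.045 by the group means, and HSPA5 at 0.40, or 0.047 by the group means, while DDIT3 went from 0.47 to 1.03. The group means also reversed DDIT4 (0.16) and HSPA5 (-0.13). The median of the 2 tested fibroblast, endothelial and immune markers turned to 0.26 without the filter, with more genes of few reads included. The causes were not tested. TRIB3, CHAC1, SESN2, ASNS, DDIT3, PHGDH and PSAT1 kept their direction under every alternative listed. No paired analysis was possible because the groups share fewer than 2 replicate numbers. DDIT3 and CHAC1 had the fewest reads of the 10 genes in the parental library, 45 and 53. For CHAC1 the resistant libraries also differed from each other by 2.75-fold.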
